A study of Bos taurus
Mus musculus and Bos taurus and Mus musculus with 5 samples.

Results

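The 10 genes described here set how much glucose a cell takes up, how fast it enters glycolysis and what becomes of the pyruvate at the end. They were the glucose transporter genes SLC2A1 and SLC2A3, the lactate transporter genes SLC16A1 and SLC16A3, the hexokinase genes HK1 and HK2, the regulator genes PFKFB3 and PFKFB4, the pyruvate dehydrogenase kinase gene PDK1 and the lactate dehydrogenase gene LDHB. They were chosen by name, and 9 of the 10 had rows among the 13923 genes of the bovine table and 10 among the 24543 genes of the mouse table. Bovine HK2 was not analysed here. The names in either table came to 26406.

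The study fused bovine fetal fibroblasts with mouse embryonic stem cells and counted transcripts in the resulting heterokaryons, cells in which the nuclei of both parents lie in shared cytoplasm. Heterokaryons were taken 24, 48 and 72 h after fusion with polyethylene glycol, which lasted 2 min and followed 4 h of co-culture. They had been kept in stem cell medium at 37 °C without the kinase inhibitors PD0325901 and CHIR99021. The controls were unfused bovine fetal fibroblasts (bFF), which came from 1 male fetus and grew in fibroblast medium at 38.5 °C, and unfused mouse embryonic stem cells (mESC) of strain C57BL, a purchased line. The stem cells grew at 37 °C over a layer of irradiated mouse fibroblasts in medium that held PD0325901 at 1 µM and CHIR99021 at 3 µM. Each of the 5 groups was 1 library of 200 sorted cells, so there were no replicate cultures. In the bovine comparison fusion cannot be told apart from medium, temperature or contact with the other cell type, and in the mouse comparison it cannot be told apart from the absence of the inhibitors or from that contact.

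As background, glucose enters most cells through GLUT1, the product of SLC2A1, and GLUT3, the higher-affinity product of SLC2A3, and is trapped inside by phosphorylation by a hexokinase. PFKFB enzymes make and break fructose 2,6-bisphosphate, a strong activator of the committed step of glycolysis. PDK1 phosphorylates and inhibits pyruvate dehydrogenase, which keeps pyruvate out of mitochondrial oxidation. Lactate dehydrogenase, built from subunits encoded by LDHA and LDHB, interconverts pyruvate and lactate, and lactate crosses the membrane through MCT1, encoded by SLC16A1, and MCT4, encoded by SLC16A3. In mammalian cells several of these genes, among them SLC2A1, SLC16A3, HK2, PFKFB3 and PDK1, are known targets of the low-oxygen factor HIF-1. Pluripotent mouse cells are known for high glycolytic activity.

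In the bovine table the heterokaryons had 982769, 1331989 and 1541793 reads at 24, 48 and 72 h, against 2634269 reads in bFF. In the mouse table the heterokaryons had 2427089, 1731084 and 1836299 reads, against 3446461 reads in mESC. All 10 fibroblast markers had reads in bFF and all 10 stem cell markers in mESC. Reads of the other species' control, scaled to each heterokaryon library, came to 0.978% or less of the reads of each bovine gene described here. For the mouse genes they came to 0.639% or less. This estimate takes each gene at its level in the unfused control, so it is no upper bound where heterokaryons differ. bFF had 13 reads of bovine SLC2A1 and 0 of SLC16A3 and PFKFB3. It could therefore show little or nothing for mouse Slc2a1, Slc16a3 and Pfkfb3. Markers of other cells moved with the groups. Of 4 blood markers with bovine rows, HBA had 75 to 90 reads in heterokaryons and 0 in bFF, the summed level was 52.2 to 86.6 CPM in heterokaryons and 0.719 CPM in bFF, and PTPRC and TYROBP were at 0 in all 4 libraries. The 10 fibroblast markers summed to 18132 to 22540 CPM in the bovine reads of heterokaryons and 36566 CPM in bFF, and the 5 epithelial markers to 395 to 702 CPM in heterokaryons and 1770 CPM in bFF. The 10 fibroblast markers, which feeder cells would also carry, summed to 368 to 445 CPM in the mouse reads of heterokaryons and 246 CPM in mESC, with Col1a2, Col3a1 and Lum at 0 throughout. The 5 epithelial markers, some of which stem cells also express, summed to 427 to 637 CPM in mouse reads of heterokaryons and 325 CPM in mESC. The part of these cells in the results was not tested. In bulk libraries fewer cells of a type and less RNA per cell cannot be told apart.

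Levels are given below as CPM, counts scaled to the library's TMM-adjusted total, and fold changes of the 3 heterokaryon libraries over the single control come from edgeR's quasi-likelihood test. The spread is that between libraries of different times, and the control is assumed to vary like them. In bovine transcripts SLC2A1, SLC2A3, SLC16A1, SLC16A3, HK1, PFKFB3 and PDK1 were higher in heterokaryons than in bFF, while LDHB did not pass the test and PFKFB4 had too few reads to be tested. These were 7 of 8 tested genes higher and 0 lower, where 4.37% of all 7376 tested bovine genes were higher and 4.77% lower. No bovine gene of the 10 was lower at an unadjusted edgeR p under 0.05 or with DESeq2. SLC2A1, SLC16A3 and PFKFB3 reached the 10 CPM needed for testing in heterokaryons but not in bFF. With no such minimum, 6 of the 9 bovine genes with rows were higher and 0 lower, against 2.85% and 3.08% of all genes.

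Among mouse transcripts of the same cells fewer of these genes passed. Slc2a1 and Hk2 were higher in heterokaryons than in mESC, 2 of 9 tested genes, where 0.576% of 8857 tested mouse genes were higher and 0.406% lower. None of the 9 was lower, also at an unadjusted edgeR p under 0.05 and with DESeq2, and 5 of the 9 had an unadjusted p under 0.05 with a higher level in heterokaryons. The share of all tested genes at that unadjusted threshold was not counted. Counts at it, here and below, therefore have no background. With no minimum level 2 of 10 were higher and 0 lower, against 0.611% and 0.441% of all genes. Mouse Pfkfb3 reached 10 CPM in heterokaryons only.

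**Figure D1:**
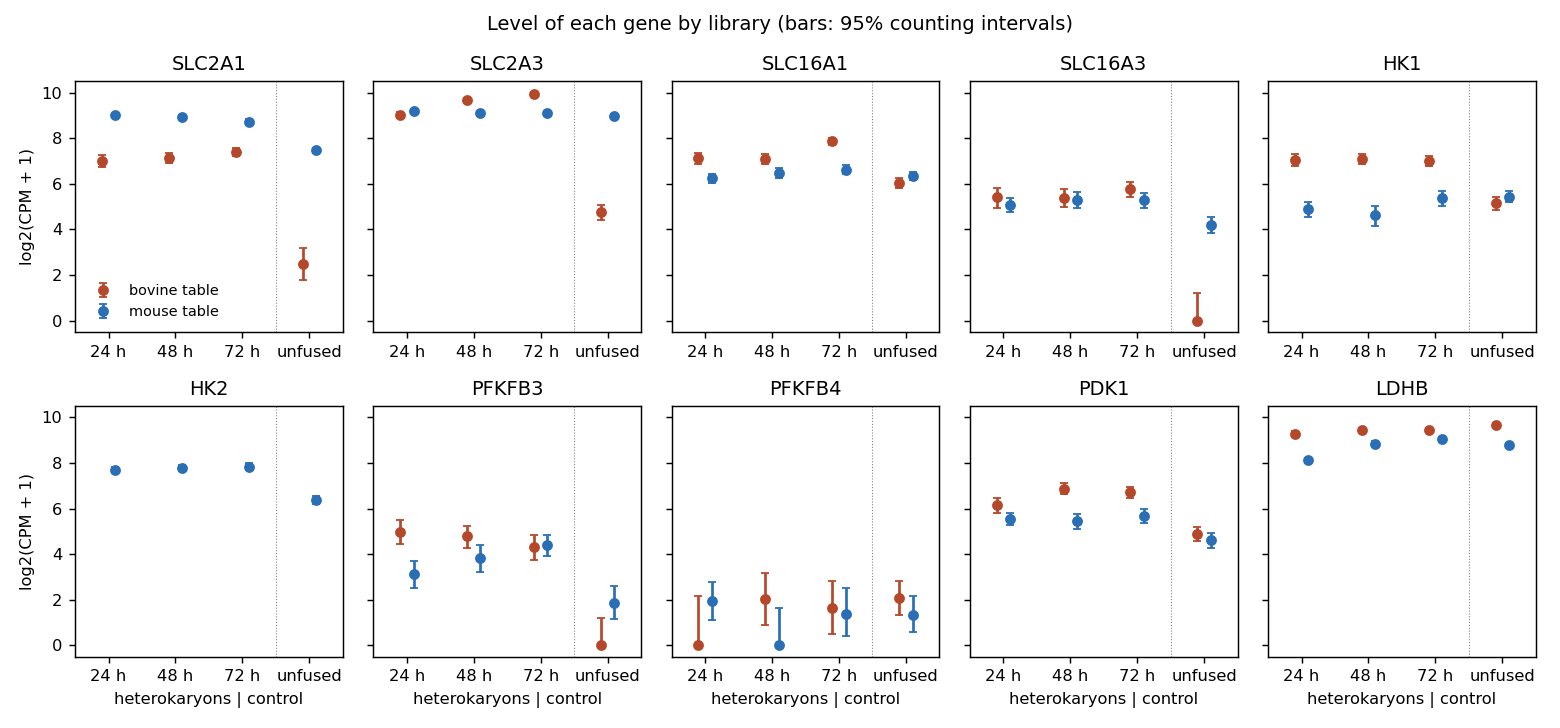
Level of each gene as log2(CPM + 1) on the vertical axis for the 24, 48 and 72 h heterokaryons and the unfused control, with bovine reads in red set against bFF and mouse reads in blue set against mESC. Bars are 95% Poisson intervals and cover counting error only. Bovine SLC16A3 and PFKFB3 sit at 0 in bFF and above 18 CPM in every heterokaryon library.

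The glucose importers showed the widest gap between heterokaryons and bFF among the bovine genes of the 10 with reads in every library. Bovine SLC2A3 (chromosome 5, minus strand, lowest coordinate 101896621 in bosTau8) had 541, 1058 and 1402 reads in the 24, 48 and 72 h heterokaryons, against 72 reads in bFF. These were 521, 826 and 976 CPM in heterokaryons and 25.9 CPM in bFF, so every heterokaryon library lay far above the control, and the level was higher at each later time. Over bFF this was 20.1-fold (95% counting interval 15.7 to 26.1) in the 24 h heterokaryons, 31.9-fold (25.1 to 41.1) in the 48 h ones and 37.7-fold (29.7 to 48.4) in the 72 h ones. It passed the test with an edgeR adjusted p of 0.000129.

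Bovine SLC2A1 (chromosome 3, plus strand, lowest coordinate 103902902) had 133, 179 and 243 reads in heterokaryons and 13 reads in bFF, which were 128, 140 and 169 CPM against 4.67 CPM. In the same order this was 27.4-fold (15.5 to 52.8), 29.9-fold (17.05 to 57.3) and 36.2-fold (20.8 to 68.9) over bFF. No heterokaryon library came near bFF. The log2 fold change was 4.94 ± 0.47 (SE; edgeR adjusted p = 8.27e-05).

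Of the mouse importers Slc2a1 passed the test and Slc2a3 did not, and the difference between these genes was not tested. Mouse Slc2a1 (chromosome 4, plus strand, lowest coordinate 119108745 in mm10) had 1255, 850 and 784 reads in heterokaryons and 595 reads in mESC, or 512, 491 and 421 CPM against 177 CPM. All 3 heterokaryon libraries were above mESC, by a log2 fold change of 1.43 ± 0.22 (SE; edgeR adjusted p = 0.00472). Mouse Slc2a3 (chromosome 6, minus strand, lowest coordinate 122727809) had 576, 546 and 544 CPM in heterokaryons and 499 CPM in mESC. That difference of 0.16 ± 0.19 on the log2 scale did not pass the test (edgeR adjusted p = 0.705; 95% interval -0.24 to 0.55).

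The share of Slc2a3 in the summed mouse reads of both importers was 52.9% in the 24 h heterokaryons, with an exact binomial 95% interval of 51.0 to 54.9. The 48 h heterokaryons had 52.6% (50.3 to 55.0) and the 72 h ones 56.3% (54.0 to 58.7), against 73.8% in mESC (72.0 to 75.6). The heterokaryon intervals all lay below that of mESC. The bovine share of SLC2A3 was 80.3% (77.1 to 83.2), 85.5% (83.4 to 87.4) and 85.2% (83.4 to 86.9) in heterokaryons. In bFF it was 84.7% (75.3 to 91.6), an interval that overlapped each of these. No difference of the bovine pair from bFF was therefore detectable at this depth. Among heterokaryons the interval at 24 h lay below those at 48 and 72 h. Transcripts differ in length, so only the change of such a share between libraries is read.

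Of the bovine lactate transporters, SLC16A3 (chromosome 19, minus strand, lowest coordinate 51243972) had 43, 52 and 77 reads in heterokaryons and 0 reads in bFF. These were 41.4, 40.6 and 53.6 CPM in heterokaryons, and a floor of 3 reads in bFF would be 1.08 CPM. Against that floor of 3 reads per library SLC16A3 was at least 38.4-fold, 37.6-fold and 49.7-fold higher. These values leave out counting error, and with it in both libraries the lower 95% limits of the folds were 29.9, 29.5 and 39.4. It passed the test (edgeR adjusted p = 0.000179), and its fitted fold change is no bound.

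Bovine SLC16A1 (chromosome 3, plus strand, lowest coordinate 30533845) had 144, 173 and 335 reads in heterokaryons and 181 reads in bFF, or 139, 135 and 233 CPM against 65.1 CPM. The heterokaryon libraries were 2.13-fold (1.70 to 2.66), 2.08-fold (1.68 to 2.57) and 3.58-fold (2.98 to 4.32) above bFF. The log2 fold change of 1.38 ± 0.39 (SE) stood close to the threshold (edgeR adjusted p = 0.0450). It did not pass with unscaled library totals (0.0608), with no minimum level (0.0554), with a minimum of 50 CPM (0.0549), without the 48 h library (0.0515) or without the 72 h library (0.0839), all edgeR adjusted p-values.

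Mouse Slc16a3 (chromosome 11, plus strand, lowest coordinate 120948484) had 81, 66 and 71 reads in heterokaryons and 59 reads in mESC, or 33.1, 38.1 and 38.2 CPM against 17.5 CPM. Its log2 difference of 1.05 ± 0.36 (SE) did not pass (edgeR adjusted p = 0.163) and did pass without the 24 h library (0.0379). Mouse Slc16a1 (chromosome 3, plus strand, lowest coordinate 104638664) had 74.7, 87.8 and 97.8 CPM in heterokaryons and 79.8 CPM in mESC, with heterokaryons on both sides of the control. Its log2 difference was 0.12 ± 0.27 (edgeR adjusted p = 0.852; 95% interval -0.45 to 0.69).

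SLC16A3 made up 22.99% (17.2 to 29.7), 23.1% (17.8 to 29.2) and 18.7% (15.0 to 22.8) of the summed bovine SLC16A1 and SLC16A3 reads in heterokaryons, against 0 of 181 reads in bFF, which allows up to 2.02% by the exact interval. In mouse reads the share of Slc16a3 was 30.7%, 30.3% and 28.1% in heterokaryons and 18.0% in mESC (14.0 to 22.6). The mouse interval at 72 h began at 22.6, where the mESC interval ended, and those at 24 and 48 h lay above it. Basigin, the chaperone that carries both transporters to the membrane, did not pass in either species. BSG differed by -0.24 ± 0.30 in bovine (edgeR adjusted p = 0.673) and Bsg by 0.50 ± 0.16 in mouse transcripts (0.150), both as log2 fold changes.

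**Figure D2:**
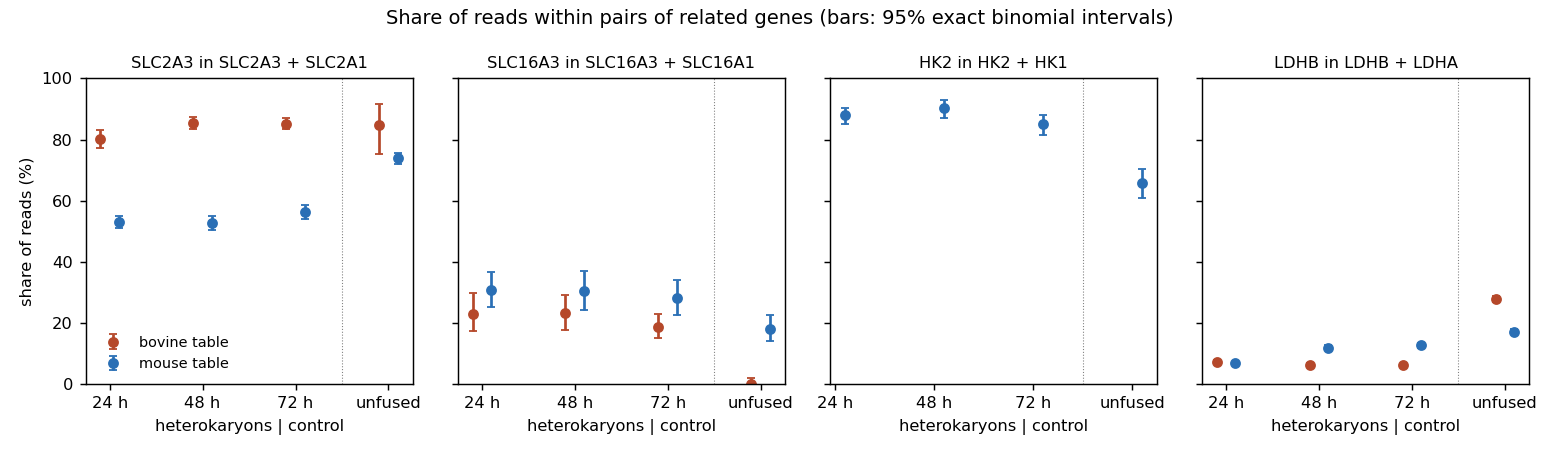
Share of reads, in percent, taken by the gene named before "in" among the summed reads of the pair, for the 24, 48 and 72 h heterokaryons and the unfused control, with bovine reads in red and mouse reads in blue. Bars are 95% exact binomial intervals. The bovine LDHB share is 6.11 to 7.27% in heterokaryons and 27.9% in bFF, and the mouse Hk2 share is 85.0 to 90.2% in heterokaryons and 65.6% in mESC.

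Of the hexokinases, bovine HK1 and mouse Hk2 passed the test and mouse Hk1 did not. Bovine HK1 (chromosome 28, plus strand, lowest coordinate 25854741), the broadly expressed hexokinase, had 137, 175 and 184 reads in heterokaryons and 96 reads in bFF. Its level was 132, 137 and 128 CPM in heterokaryons and 34.5 CPM in bFF, nearly the same at the 3 times and above bFF at each. The log2 fold change was 1.93 ± 0.35 (SE; edgeR adjusted p = 0.00529).

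Mouse Hk1 (chromosome 10, minus strand, lowest coordinate 62268855) had 70, 41 and 75 reads in heterokaryons and 143 reads in mESC, or 28.6, 23.7 and 40.3 CPM against 42.4 CPM. The log2 difference of -0.46 ± 0.35 did not pass (edgeR adjusted p = 0.526; 95% interval -1.20 to 0.29). Mouse Hk2 (chromosome 6, minus strand, lowest coordinate 82725027), the inducible form, had 508, 379 and 424 reads in heterokaryons and 273 reads in mESC. Its level was 207, 219 and 228 CPM in heterokaryons and 81.0 CPM in mESC, with every heterokaryon library above the control (log2 fold change 1.43 ± 0.24, SE; edgeR adjusted p = 0.00750).

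Hk2 made up 87.9% (84.9 to 90.4), 90.2% (87.0 to 92.9) and 85.0% (81.5 to 88.0) of mouse Hk1 and Hk2 reads in heterokaryons, against 65.6% (60.8 to 70.2) in mESC, with no overlap of the intervals. The ADP-dependent glucokinase gene ADPGK was the only one of the 5 hexokinase relatives with enough reads for a test, and it passed in neither species. Its log2 difference was 0.26 ± 0.44 in bovine (edgeR adjusted p = 0.771) and 0.20 ± 0.34 in mouse transcripts (0.804).

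Of the fructose 2,6-bisphosphate regulators, bovine PFKFB3 (chromosome 13, minus strand, lowest coordinate 17380740), whose enzyme mainly makes the activator, had 32, 34 and 27 reads in heterokaryons and 0 reads in bFF. The levels were 30.8, 26.6 and 18.8 CPM in heterokaryons. Over the floor of 3 reads in bFF it was at least 28.5-fold, 24.6-fold and 17.4-fold higher, with lower 95% counting limits of 21.9, 19.0 and 13.2, and it passed the test (edgeR adjusted p = 0.00163).

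Mouse Pfkfb3 (chromosome 2, minus strand, lowest coordinate 11471431) had 19, 23 and 37 reads in heterokaryons and 9 reads in mESC, spread over 8 listed transcripts. Its level was 7.75, 13.3 and 19.9 CPM in heterokaryons and 2.67 CPM in mESC, or 2.90-fold (1.25 to 7.29), 4.98-fold (2.22 to 12.2) and 7.45-fold (3.53 to 17.5) over mESC. The log2 difference of 2.32 ± 0.80 (SE) did not pass (edgeR adjusted p = 0.169) and did pass without the 24 h library (0.0189).

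PFKFB4, a relative of PFKFB3, was at the edge of detection. Bovine PFKFB4 (chromosome 22, plus strand, lowest coordinate 51898004) had 0, 4 and 3 reads in heterokaryons and 9 reads in bFF. Mouse Pfkfb4 (chromosome 9, plus strand, lowest coordinate 108991902) had 7, 0 and 3 reads in heterokaryons and 5 reads in mESC. No difference was detectable at this depth for either. Every read of the bovine pair in bFF was of PFKFB4, 9 of 9 (exact interval 66.4 to 100%), and in heterokaryons its share was 0 of 32 reads at 24 h, which allows up to 10.9% by the exact interval, then 10.5% (2.94 to 24.8) in the 48 h and 10.0% (2.11 to 26.5) in the 72 h library. The other regulators of this metabolite and its pathway, PFKFB1, PFKFB2, TIGAR, FBP1 and FBP2, had too few bovine reads for a test. Of 4 of them tested in mouse transcripts 0 passed edgeR or DESeq2 or had an unadjusted edgeR p under 0.05. Over all tested mouse genes edgeR called 0.576% higher and 0.406% lower, so 0 of 4 shows little about these regulators.

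At the exit of glycolysis, bovine PDK1 (chromosome 2, minus strand, lowest coordinate 24065277) had 73, 149 and 150 reads in heterokaryons and 79 reads in bFF. Its level was 70.2, 116 and 104 CPM in heterokaryons and 28.4 CPM in bFF, lower at 24 h than at the later times and above bFF at all of them. The log2 fold change was 1.77 ± 0.41 (SE; edgeR adjusted p = 0.0174). Mouse Pdk1 (chromosome 2, plus strand, lowest coordinate 71873224) had 111, 73 and 93 reads in heterokaryons and 79 reads in mESC, or 45.3, 42.2 and 50.0 CPM against 23.4 CPM. Its log2 difference of 0.97 ± 0.34 did not pass (edgeR adjusted p = 0.180; 95% interval 0.24 to 1.69 before adjustment).

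The other genes around pyruvate dehydrogenase, its subunits, its other kinases and phosphatases, the mitochondrial pyruvate carrier and pyruvate carboxylase, were given as 14 names. Of 10 tested in bovine transcripts 0 passed edgeR or DESeq2 and 1 had an unadjusted edgeR p under 0.05, with a median log2 fold change of 0.23, against -0.03 over all tested bovine genes. That one was the carboxylase gene PC, named after its value was seen (-0.92 ± 0.39). Of 9 tested in mouse transcripts 0 passed edgeR or DESeq2 and 3 had an unadjusted p under 0.05, all with lower levels in heterokaryons. The median over the 9 was -0.55, against -0.09 over all tested mouse genes. The share of all genes at an unadjusted p under 0.05 was not counted. Over all tested genes edgeR called 4.37% higher and 4.77% lower in bovine and 0.576% higher and 0.406% lower in mouse transcripts. At such shares 0 calls among so few genes show little about the list.

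LDHB, whose subunit favours the conversion of lactate to pyruvate, was the only tested bovine gene of the 10 that did not pass. Bovine LDHB (chromosome 5, plus strand, lowest coordinate 88962610, 2 listed transcripts) had 639, 894 and 1000 reads in heterokaryons and 2281 reads in bFF, or 615, 698 and 696 CPM against 820 CPM. All 3 heterokaryon levels were below bFF, by 0.750-fold, 0.851-fold and 0.848-fold. The log2 fold change of -0.29 ± 0.29 had an edgeR adjusted p of 0.591 and a 95% interval of -0.92 to 0.34. Its partner LDHA (chromosome 29, minus strand, lowest coordinate 26543857), whose subunit favours lactate formation, had 7841, 10490 and 10686 CPM in heterokaryons and 2122 CPM in bFF (log2 fold change 2.19 ± 0.37, SE; edgeR adjusted p = 0.00387).

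The LDHB share of bovine LDHA and LDHB reads was 7.27% (6.74 to 7.84), 6.24% (5.85 to 6.65) and 6.11% (5.75 to 6.49) in heterokaryons, against 27.9% (26.9 to 28.9) in bFF. Mouse Ldhb (chromosome 6, minus strand, lowest coordinate 142490249, 3 listed transcripts) had 677, 791 and 970 reads in heterokaryons and 1476 reads in mESC. Its level of 276 CPM at 24 h lay below the 438 CPM of mESC, and those of 457 CPM at 48 h and 521 CPM at 72 h lay above it. Over the 3 times its log2 difference was -0.07 ± 0.27 (edgeR adjusted p = 0.916; 95% interval -0.65 to 0.51), a sign that turned with DESeq2, with TMM factors over tested genes and without the 24 h library. Mouse Ldha differed by 0.77 ± 0.15 (edgeR adjusted p = 0.0239), and the Ldhb share of mouse reads was 6.77% (6.29 to 7.28), 11.8% (11.05 to 12.6) and 12.6% (11.8 to 13.3) in heterokaryons, against 17.1% (16.3 to 17.9) in mESC. LDHA has near-identical copies elsewhere in mammalian genomes, so how its reads were assigned is uncertain.

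**Figure D3:**
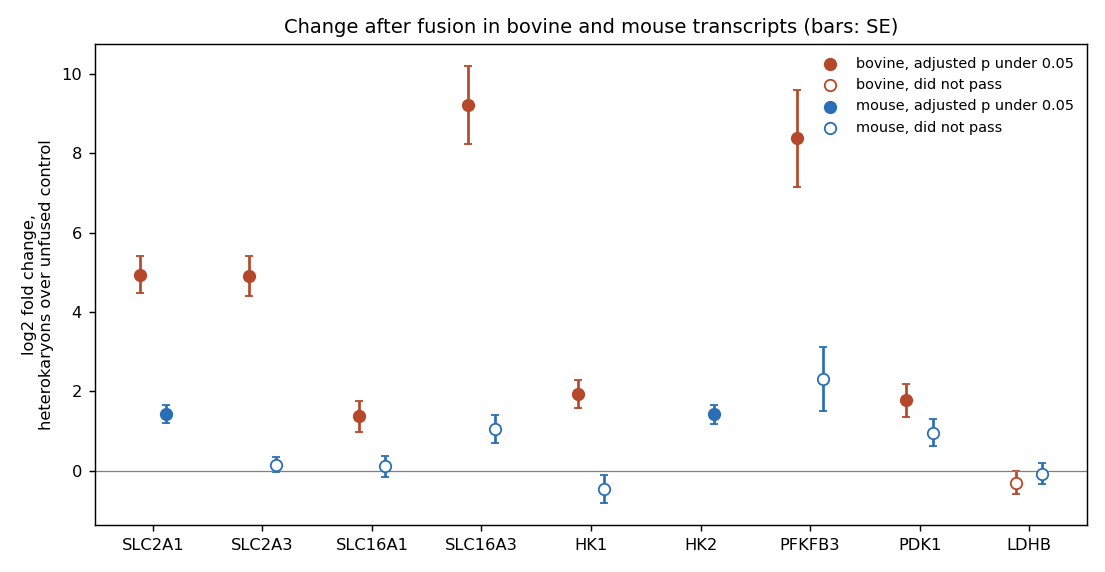
Log2 fold change of heterokaryons over the unfused control (vertical axis) for bovine transcripts over bFF in red and mouse transcripts over mESC in blue, with SE bars and filled points where the edgeR adjusted p is under 0.05. The bovine values of SLC16A3 and PFKFB3 are fitted against 0 reads in bFF and are no bounds, PFKFB4 was not tested, and LDHB lies near 0 in both species.

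Whether a gene's difference was larger on the bovine than on the mouse side was tested directly, as the species by treatment term, for 5635 genes. It was larger for 4 of the 8 genes tested, SLC2A3, SLC2A1, SLC16A3 and HK1, and smaller for 0, where 3.69% of all genes tested were larger and 1.54% smaller. None of the 8 was smaller at an unadjusted edgeR p under 0.05 or with DESeq2. SLC2A1, SLC16A3 and PFKFB3 met the minimum of 10 CPM in bovine reads of heterokaryons only. With no minimum, 4 of 9 genes were larger and 0 smaller, and the share over all genes was not counted for that setting. A larger bovine difference was not particular to these genes, as genes of the glycolytic chain showed it too, given below. The bovine minus mouse difference in log2 fold change was 4.74 ± 0.47 for SLC2A3 (SE; edgeR adjusted p = 0.000229) and 3.52 ± 0.44 for SLC2A1 (0.00102). For HK1 it was 2.39 ± 0.46 (edgeR adjusted p = 0.00955), and it did not pass without the 48 h library (0.0743). SLC16A3 passed too (edgeR adjusted p = 0.00144), with a fitted difference of 8.45 ± 1.14 that rests on 0 bovine control reads.

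For the other 4 genes the difference between species did not pass. PFKFB3 had an edgeR adjusted p of 0.0770, which was 0.0460 without the 24 h library. SLC16A1 differed by 1.26 ± 0.47 (edgeR adjusted p = 0.145; 95% interval 0.24 to 2.28 before adjustment), and it passed without the 24 h library (0.0109). PDK1 differed by 0.81 ± 0.48 (edgeR adjusted p = 0.351; 95% interval -0.23 to 1.84) and LDHB by -0.22 ± 0.43 (edgeR adjusted p = 0.804; 95% interval -1.14 to 0.69). The bovine and mouse comparisons share no control, but both rest on the same 3 heterokaryon libraries.

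Taken library by library, with a difference of at least 4-fold on the log2(CPM + 1) scale and no test, SLC2A1, SLC2A3, SLC16A3 and PFKFB3 were higher in bovine transcripts at each of the 3 times, 4 of 8 genes compared. Over all bovine genes compared the shares at least 4-fold higher were 4.03% at 24 h, 2.97% at 48 h and 3.36% at 72 h. None of the 8 was at least 4-fold lower, where 2.89%, 3.53% and 4.16% of all genes were. In mouse transcripts 0 of 8 genes at 24 h and 0 of 9 at 48 h were at least 4-fold higher, where the shares over all mouse genes were 1.69% and 0.577%. At 72 h Pfkfb3 was, 1 of 9, against 0.426%. None was at least 4-fold lower at any time, where 0.378%, 0.372% and 0.0851% of all genes were. Bovine SLC2A1, SLC16A3 and PFKFB3 and mouse Pfkfb3 met the minimum of 10 CPM in heterokaryons only. With no minimum, 4 of 9 bovine genes were at least 4-fold higher at each time, and 1 was lower at 24 h. In mouse transcripts 1 of 10 was then higher at 72 h. The shares over all genes with no minimum were not counted.

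Within the heterokaryons the 72 h over 24 h ratio of CPM differed from gene to gene. Bovine SLC2A3 was 1.87-fold higher at 72 h than at 24 h (95% counting interval 1.70 to 2.07), SLC16A1 1.68-fold (1.38 to 2.06), PDK1 1.49-fold (1.12 to 1.99), SLC2A1 1.32-fold (1.07 to 1.64) and LDHB 1.13-fold (1.02 to 1.25). The ratio of bovine HK1 was 0.971 (0.774 to 1.22), of SLC16A3 1.29 (0.880 to 1.93) and of PFKFB3 0.610 (0.352 to 1.05), intervals that hold 1. In mouse transcripts Pfkfb3 was 2.57-fold higher at 72 h (1.44 to 4.72) and Ldhb 1.89-fold (1.71 to 2.09), Hk1 was 1.41-fold (1.01 to 1.98) and Slc16a1 1.31-fold (1.06 to 1.62), while Slc2a1 stood at 0.823-fold (0.752 to 0.900). The ratios of the other mouse genes had intervals that hold 1. They were 0.944 (0.870 to 1.02) for Slc2a3, 1.10 (0.964 to 1.25) for Hk2 and 1.15 (0.828 to 1.61) for Slc16a3. For Pdk1 the ratio was 1.10 (0.829 to 1.47) and for Pfkfb4 0.565 (0.0942 to 2.47). The share of all genes whose interval leaves out 1 was not counted. With 1 library per time these intervals carry no spread between cultures.

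The bovine share of each gene's reads was followed over time inside the heterokaryon libraries. Transcripts of the species can differ in length and in how well they are told apart, so the share is compared between times and is not a ratio of molecules. Bovine reads made up 28.8%, 43.5% and 45.6% of all assigned reads at 24, 48 and 72 h, also with no overlap of their intervals. A rise in a gene's share therefore holds the rise of the whole library, and the part beyond it was not tested. For SLC2A1 the bovine share was 9.58% (8.08 to 11.3), 17.4% (15.1 to 19.9) and 23.7% (21.1 to 26.4), with no overlap between times. For SLC2A3 it was 27.7% (25.7 to 29.7), 52.8% (50.6 to 55.0) and 58.1% (56.1 to 60.1), also with no overlap.

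Bovine reads of SLC16A1 made up 44.0%, 53.2% and 64.8%, and those of PDK1 39.7%, 67.1% and 61.7%. The intervals at 24 and 72 h did not overlap for either gene, as they did not for all assigned reads. For HK1 the share was 66.2% (59.3 to 72.6), 81.0% (75.1 to 86.0) and 71.0% (65.1 to 76.5), and the intervals at 24 and 72 h overlapped. The SLC16A3 share was 34.7% (26.4 to 43.7), 44.1% (34.9 to 53.5) and 52.0% (43.7 to 60.3). For PFKFB3 it was 62.7% (48.1 to 75.9), 59.6% (45.8 to 72.4) and 42.2% (29.9 to 55.2), with overlapping intervals. LDHB lay at 48.6%, 53.1% and 50.8%, and its intervals at 24 and 72 h overlapped.

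**Figure D4:**
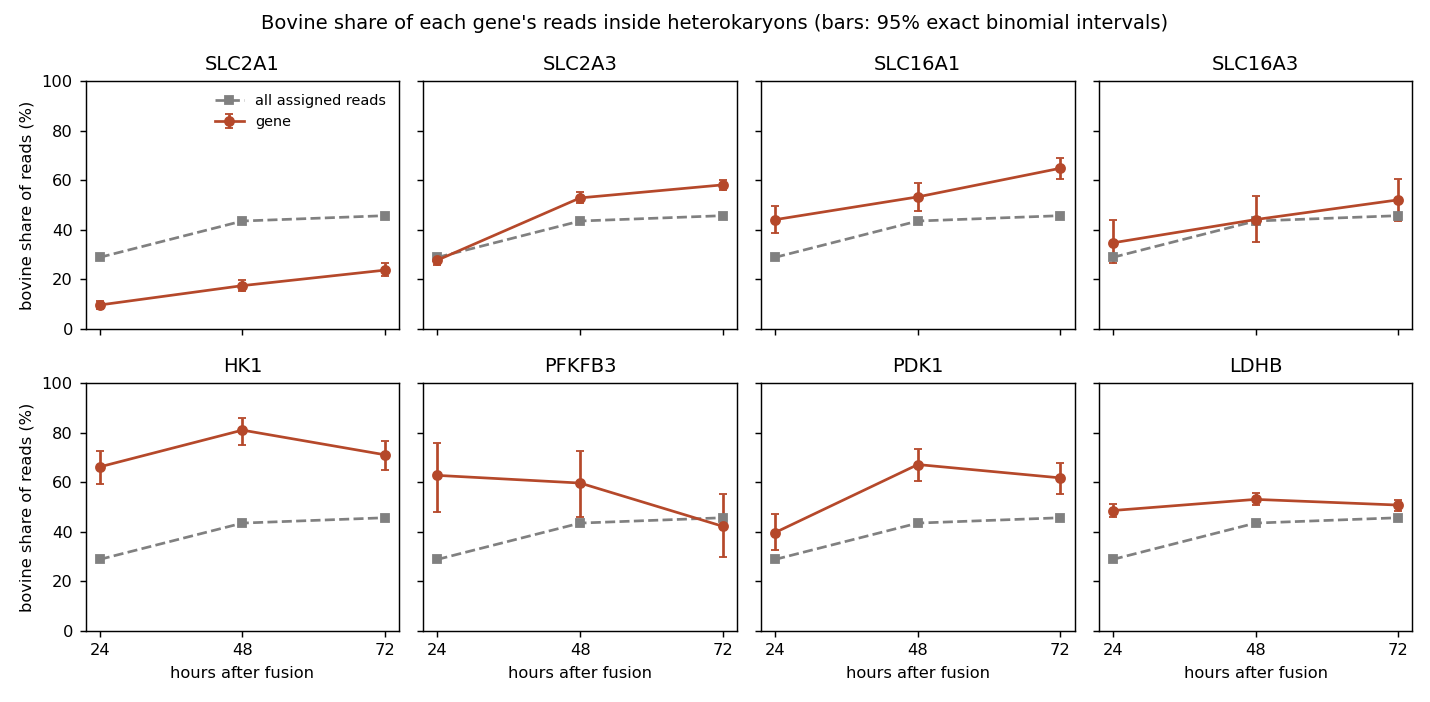
Bovine share of the reads of each gene inside heterokaryons, in percent, against hours after fusion, with the bovine share of all assigned reads as grey squares. Bars are 95% exact binomial intervals. The SLC2A3 share is 27.7% at 24 h and 58.1% at 72 h, while the LDHB share lies between 48.6% and 53.1%. The share of all assigned reads is 28.8% at 24 h and 45.6% at 72 h.

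Annotated transcript lengths allow the mouse genes to be ordered against each other, as CPM per kilobase of the mean listed transcript length. In mESC the order was Ldhb at 336, Slc2a3 at 126, Slc2a1 at 54.2, Slc16a1 at 18.0, Hk2 at 14.7, Hk1 at 10.4, Slc16a3 at 5.84, Pdk1 at 4.52, Pfkfb3 at 0.796 and Pfkfb4 at 0.425 CPM per kilobase. Slc16a1 and Hk2, Slc16a3 and Pdk1, and Pfkfb3 and Pfkfb4 were neighbours whose 95% counting intervals overlapped. In heterokaryons Slc2a1 reached 157, 151 and 129 CPM per kilobase, beside 146, 138 and 137 for Slc2a3, and the intervals of these genes overlapped at each time. Hk2 reached 37.6, 39.7 and 41.3 CPM per kilobase in heterokaryons, above Slc16a1 at 16.9, 19.8 and 22.1 with no overlap.

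The surrounding pathway was described by 7 further lists with 73 names. In bovine transcripts 13 of 40 tested genes of these lists were higher and 0 lower, where 4.37% of all tested bovine genes were higher and 4.77% lower. In mouse transcripts 4 of 46 were higher and 0 lower, where 0.576% of all tested mouse genes were higher and 0.406% lower. The enzymes of the glycolytic chain held most of them. Of 15 tested bovine chain genes 11 were higher, with a median log2 fold change of 2.19, against 4.37% and a median of -0.03 over all tested bovine genes. Of 13 tested mouse ones 4 were higher, with a median of 0.60, against 0.576% and a median of -0.09 over all tested mouse genes. The highest bovine ones were PGK1, which makes the first ATP of the pathway (3.18 ± 0.42), the phosphofructokinase gene PFKL (2.84 ± 0.43), the mutase gene PGAM1 (2.54 ± 0.36) and the isomerase gene GPI (2.53 ± 0.35), all as log2 fold change ± SE. The mouse ones were Tpi1 (1.04 ± 0.17), Pgk1 (0.91 ± 0.17), Eno1 (0.81 ± 0.14) and Ldha. Several chain genes have processed copies in mammalian genomes, which makes their read assignment uncertain. The test of the difference between species was also passed by genes of this chain, with larger values on the bovine side. The bovine minus mouse log2 values were 2.51 ± 0.47 for PFKL, 2.27 ± 0.39 for PGK1 and 2.15 ± 0.32 for PGAM1. They were 1.42 ± 0.33 for LDHA, 1.21 ± 0.32 for TPI1 and 1.17 ± 0.30 for ENO1. Of these calls, those of TPI1 and ENO1 were lost with unscaled library totals and without the 48 h or the 72 h library. They were also lost with time as a block shared by the bovine and mouse reads of a library. The call of LDHA was lost without the 48 h or the 72 h library, and those of PFKL and PGK1 without the 48 h library. ENO3, PFKM and ALDOC did not pass the test of the difference between species, and all other chain genes tested for it did. Over all genes tested for it, 3.69% were larger on the bovine side and 1.54% smaller.

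Few genes of other transporter families and their control could be tested, and none was among the calls. Over all tested genes edgeR called 4.37% higher and 4.77% lower in bovine and 0.576% higher and 0.406% lower in mouse transcripts. At such shares 0 calls among so few genes show little about these families. Of the other glucose transporters and the uptake inhibitors TXNIP and ARRDC4, 3 were tested in bovine transcripts and 3 in mouse, and 0 passed edgeR or DESeq2. Of these, 0 bovine and 3 mouse genes had an unadjusted edgeR p under 0.05, the mouse ones all with lower levels in heterokaryons. Txnip, whose protein restrains glucose uptake and which was named after its values were seen, had 189, 81.5 and 104 CPM in mouse reads of heterokaryons and 208 CPM in mESC (log2 difference -0.73 ± 0.33; edgeR adjusted p = 0.288). Of the other monocarboxylate transporters and their chaperones, 2 bovine and 4 mouse genes were tested and 0 passed edgeR or DESeq2, with 0 bovine and 1 mouse gene at an unadjusted edgeR p under 0.05.

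Of the genes for oxygen sensing and MYC control, 2 of 9 tested bovine genes were higher and 0 lower, where 4.37% of all tested bovine genes were higher and 4.77% lower. Both encode HIF prolyl hydroxylases and are themselves known HIF targets. EGLN1 had 109, 108 and 111 CPM in heterokaryons and 33.8 CPM in bFF (log2 fold change 1.69 ± 0.35, SE; edgeR adjusted p = 0.0109). EGLN3 had 20, 37 and 29 reads in heterokaryons and 8 reads in bFF (2.95 ± 0.69; edgeR adjusted p = 0.0186), and it did not pass without the 48 h library (0.0881). EGLN3 reached 10 CPM in heterokaryons only. HIF1A itself, the oxygen-regulated subunit, had 111, 134 and 170 CPM in heterokaryons and 142 CPM in bFF and did not pass (-0.04 ± 0.32; edgeR adjusted p = 0.958).

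In mouse transcripts 0 of 12 tested genes of that list passed edgeR, where 0.576% of all tested mouse genes were higher and 0.406% lower. Of the 12, 5 had an unadjusted edgeR p under 0.05, and 2 passed DESeq2. The share of all tested mouse genes at that unadjusted threshold was not counted. The median log2 fold change of the list was -0.36, against -0.09 over all tested mouse genes. The genes that passed DESeq2 were Egln1 (1.54 ± 0.35; edgeR adjusted p = 0.0544) and Egln3 (1.59 ± 0.45; 0.0999), with log2 fold changes above 0. The DESeq2 adjusted p was 0.0146 for Egln1 and 0.0382 for Egln3. The other 3 with an unadjusted p under 0.05 had lower levels in heterokaryons than in mESC, with log2 differences of -1.51 ± 0.42 for Egln2, -0.99 ± 0.32 for Hif1a and -1.28 ± 0.53 for Max.

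**Figure D5:**
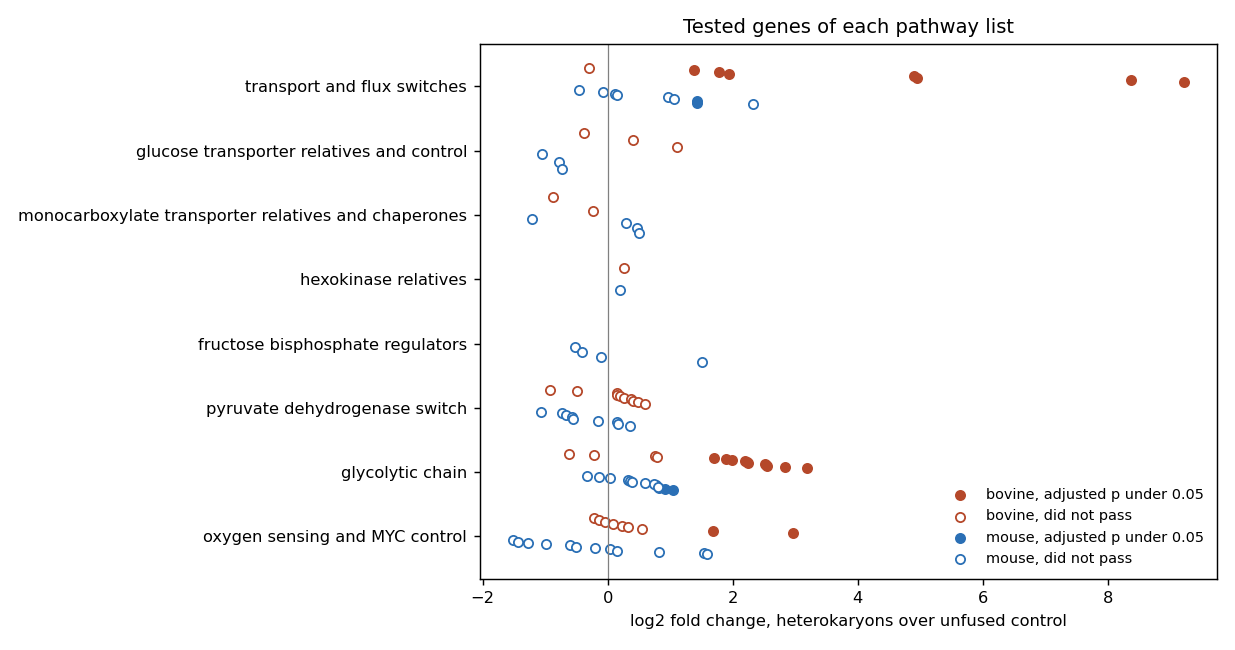
Log2 fold change of heterokaryons over the unfused control for every tested gene of each list, bovine in red and mouse in blue, filled where the edgeR adjusted p is under 0.05. Filled points lie in the first list, the glycolytic chain and the oxygen sensing list, and the lists of related transporters, hexokinases, fructose bisphosphate regulators and pyruvate dehydrogenase genes hold open points. Few genes were tested in the lists with open points only, so these points alone set no list apart.

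For each gene at 50 CPM or more, the genes whose 3 log2 changes over the control lay closest to its own were found by Euclidean distance over the 3 times, among 3828 bovine and 4073 mouse genes. For bovine SLC2A3 these were BNIP3, at a distance of 0.23, and SLC2A1 at 0.47, and for SLC2A1 they were BNIP3 at 0.31 and IL6 at 0.39. BNIP3, a mitochondrial protein gene, had 945, 1546 and 2315 reads in heterokaryons and 125 reads in bFF. SLC16A3 lay nearest to UPP1 (0.43) and PLAUR (0.59), but with 0 reads in bFF its changes and so these distances are set by the pseudocount of 1 CPM. The nearest genes were RGCC (0.15) and TMEM45A (0.20) for SLC16A1, VDAC2 (0.24) and ENO1 (0.26) for HK1, CKS2 (0.12) and PKM (0.29) for PDK1, and FAM208A (0.02) and EXOC1 (0.03) for LDHB.

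In mouse transcripts the nearest genes to Hk2 were Egln1 (0.15) and Bnip3 (0.18), and those to Slc2a1 were Dnajc5 (0.15) and Gpx1 (0.25). Slc2a3 lay nearest to Trap1a (0.02) and Snx3 (0.05), Slc16a1 to 0610010K14Rik (0.03) and Yae1d1 (0.06), and Ldhb to Lbr (0.06) and Qdpr (0.13). All of these distances share the control library and rest on 3 points, so they are descriptions only.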

How the data were processed

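The authors deposited a bovine and a mouse table of RefSeq transcripts with whole read counts, per the file headers, and with RPM columns. RPM matched the deposited counts over their column sums, so only counts were analysed. Per the submitters' processing notes the builds were bosTau8, GRCm38 and mm10. Aligner, counter, strand use and the rule separating the species were not given in the sources used here. No value equals 1, so single reads may be listed as 0. Per the labels' protocols, SMART-Seq v4 cDNA of 200 cells per library went through 14 cycles. Such reads are not independent molecules, and the 95% intervals of reads, folds and shares cover counting error only. The SE of a fitted log2 fold change was its absolute value over the square root of edgeR's F statistic. The 95% intervals of fitted log2 fold changes come from that SE. The files give 1 start per transcript, the lower coordinate on either strand. Of 32156 comparisons of mouse starts with GENCODE transcripts, 13455 matched the start plus 1, 951 the start itself and the others neither. Starts are therefore printed plus 1 in both species, and bovine starts were not checked.

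Transcripts were summed by gene name, and names altered to dates were restored for 23 of 23 bovine and 57 of 60 mouse entries. A total of 1 mouse row without a name (column totals) was left out. The RPM columns served only for the check against the counts. The 3 heterokaryon libraries were tested against the control of each species by the quasi-likelihood test of edgeR 4.0.16 in R 4.3.3, with TMM factors over all genes. Genes needed 10 CPM in any library, and a call was an adjusted p under 0.05 (Benjamini-Hochberg, over all genes tested). The steps were tested on simulated data. DESeq2 1.42.0 was an alternative. The others were library totals, RLE factors, minimum levels, subtraction of wrongly assigned reads, removal of single heterokaryon libraries and TMM factors over tested genes, the last chosen after seeing the data. Comparisons by time used log2(CPM + 1). Mouse transcript lengths came from GENCODE. Tables and plots were made with matplotlib 3.10.9, scipy 1.17.1, numpy 2.4.6 and pandas 2.3.3 in Python 3.11.15.

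The 10 genes and the lists were chosen with earlier results of these data known. Named were all 10, LDHA, of each other list up to 4 genes per species past the edgeR test, and the 2 genes nearest to each of the 10 at 50 CPM or more. BSG, ADPGK, HIF1A, TXNIP, PC, ENO3, PFKM, ALDOC and mouse Egln1, Egln2, Egln3, Hif1a and Max were named after their values were seen. Promoter and protein sequences were not used here.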

Additional observations from a re-analysis of the deposited data

Results flagged for a closer look

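For 4 of the 8 genes tested the difference between heterokaryons and control was larger on the bovine than on the mouse side by a test of that difference itself. Over all 5635 genes tested, 3.69% were larger and 1.54% smaller. Genes of the glycolytic chain showed a larger bovine difference too, as given above. The bovine minus mouse log2 values were 4.74 for SLC2A3, 3.52 for SLC2A1, 8.45 for SLC16A3 and 2.39 for HK1, and the value of SLC16A3 rests on 0 bovine reads in bFF. Of these 4 genes mouse Slc2a1 passed its own test, and mouse Slc2a3, Slc16a3 and Hk1 did not. Reads outside the comparisons were seen for mouse Ldhb, under which 10 reads of the bFF control are listed, which scaled to the heterokaryons would be at most 0.639% of its reads.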

How the results depend on the processing

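Calls of single genes under the alternatives, in both species and for the difference between them, kept their direction and side of the threshold in 466 cases. With the direction kept, 21 lost the call and 14 gained it. The 3 that reversed were of mouse Ldhb, which passed under none of them: its log2 difference was 0.0367 with DESeq2, 0.0280 with TMM factors over tested genes and -0.26 to 0.21 when a library was left out, positive without the 24 h library. In bovine transcripts SLC16A1 was the gene of the 10 whose call was lost, as given above. Mouse genes of the 10 higher in heterokaryons numbered 2 to 4 when a library was left out, with Pfkfb3 and Slc16a3 added without the 24 h library. A minimum of 50 CPM left 4 genes tested for the difference between species, of which 2 passed, by its construction. Of the further lists, 1 bovine gene was lower without the 24 h library. In mouse transcripts 7 list genes were higher with DESeq2 and 4 to 8 when a library was left out, and 0 to 4 were lower, 4 without the 24 h and 3 without the 72 h library. The cause was not tested. By time, a limit of 2-fold gave 7 bovine genes at each time and 2, 4 and 5 mouse genes at 24, 48 and 72 h. The shares over all genes at this limit and under the alternatives by time that follow are not given here, so these counts have no background. With a minimum of 50 CPM, 2 bovine genes were at least 4-fold higher at 24 h and at 48 h and 0 mouse genes at 72 h. With no minimum, 1 bovine gene, PFKFB4, was lower at 24 h. A pseudocount of 0.25 gave 1 mouse gene at 48 h, and one of 5 gave 0 at 72 h. Within a species, no paired analysis was possible because each group had 1 library. For the difference between species, time as a block shared by the bovine and mouse reads of a library changed no call of the 8 genes tested. Depth limits PFKFB4 in both species. Promoter motifs were not run.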
